A study of Mus musculus with 12 samples.

Results

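NOD-like receptor and inflammasome genes were described from 7 listed names, Nod1, Nod2, Ripk2, Card9, Nlrp3, Casp1 and Pycard, by taking every one that had a row in the deposited table. Of these, 3 were present, Nod2, Card9 and Casp1, out of 561 genes in the table. Nod1, Ripk2, Nlrp3 and Pycard were not analysed here. All 3 genes passed the filter on low values (a mean of at least 20 scaled counts) and were among the 445 genes tested.

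The samples came from mice on a C57BL6 background that carry an exon 16 knockout and model hemophilia A, and treated and control animals alike carried it. Spleen and mesenteric lymph nodes, which drain the gut, were taken at 6 weeks of age. Ampicillin had been given by gavage to the treated mice when they were 3 weeks old, and the control mice are labelled only as controls, with no mention of a gavage without drug. Each of the 4 groups (control spleen, ampicillin spleen, control nodes, ampicillin nodes) held 3 samples, and the 12 samples came from 12 separately numbered mice. RNA was counted on the NanoString nCounter Mouse Immunology panel, which tallies barcoded probes hybridized to RNA without amplification, so a level can be compared between samples for 1 gene but not between genes.

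Nod2 is a cytosolic receptor for muramyl dipeptide, a fragment of the bacterial cell wall, and signals through the kinase Ripk2 to the transcription factor NF-kB. Card9 is an adaptor of myeloid cells that carries signals from C-type lectin receptors through Syk to NF-kB, and in mice it also takes part in signalling from Nod2. Casp1 encodes caspase-1, the protease that inflammasomes activate, which matures the cytokines interleukin 1 beta and interleukin 18. Spleen and lymph nodes hold the macrophages, dendritic cells and neutrophils in which these genes are best known, beside a large majority of lymphocytes.

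Total counts ran from 396950 to 738489 per sample. Counts were scaled by the geometric mean of 14 housekeeping genes, which ran from 912.4 to 1501 counts. T cell markers were higher in control nodes than in control spleens for 12 of 12 tested genes and B cell markers lower for 9 of 10. Among the tissue markers Cr2 was lower in nodes, while Marco, listed here for spleen, was higher in nodes. The spleen-defining genes Tlx1, Nkx2-5 and Spic were not analysed here. Ampicillin spleens 2 and 3 stood apart from the other spleens. The summed level of 5 erythroid precursor genes was 12969 and 9866 scaled counts there, against 1826 in ampicillin spleen 1 and 1965 to 3263 in control spleens. Results that rest on ampicillin spleens are therefore also given with spleens 2 and 3 left out, in fits where the lone ampicillin spleen is assumed to vary like the other groups.

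Casp1 was lower in the spleen after ampicillin. Its level in control spleens 1, 2 and 3 was 447.7, 456.4 and 453.0 scaled counts. In ampicillin spleens 1, 2 and 3 it was 331.2, 336.2 and 296.4 scaled counts. Every ampicillin spleen lay below every control spleen, and the gap between the groups was wider than the spread within either. Casp1 fell by 29.0%, from 452.4 ± 4.36 to 321.3 ± 21.7 scaled counts (SD, n = 3 each). The log2 change was -0.50 with a standard error (SE) of 0.08, a 95% interval of -0.67 to -0.32 and an adjusted p of 0.014 (edgeR quasi-likelihood test with Benjamini-Hochberg adjustment over the 445 genes).

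Casp1 had the smallest p of the 445 genes in this comparison. It was the 1 called gene among Casp1, Nod2 and Card9, where 16.9% of all tested genes were called and 14.6% were called lower. Ampicillin and control spleens did not overlap in 34.6% of all tested genes. The median of all tested genes lay at -0.17 on the log2 scale with housekeeping scaling and at 0.00063 with TMM scaling (edgeR's trimmed mean of M-values), so Casp1 stood 0.32 below the median with either. With TMM scaling its log2 change was -0.32 (adjusted p = 0.038), and it ranked at position 13 by p. The change was -0.50 in a fit without control spleen 1 (adjusted p = 0.071) and -0.49 in a fit of the 6 spleens alone (adjusted p = 0.094), and it did not pass in either.

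Cell type markers moved in the same comparison. All 5 erythroid precursor genes were higher, 6 of 12 T cell, 4 of 10 B cell and 2 of 4 dendritic cell markers were lower, and 0 of 9 monocyte and macrophage and 0 of 6 neutrophil markers were called (edgeR; no marker of these lists was at 0 in any spleen). These counts are with housekeeping scaling, where the median log2 change of all tested genes was -0.17. The list medians were -0.44 for T cell, -0.32 for B cell and -0.35 for dendritic cell markers. They were -0.04 for monocyte and macrophage, 0.03 for neutrophil and 2.14 for erythroid markers. Summed over the list, T cell markers ran from 5452 to 8749 scaled counts in ampicillin spleens and from 8648 to 10120 in controls. B cell markers ran from 22710 to 26818 against 28991 to 30369, dendritic cell markers from 1388 to 1927 against 1782 to 2017.5, and monocyte and macrophage markers from 4931 to 6321 against 5744 to 6251. In bulk tissue, fewer cells of a type and less RNA per cell cannot be told apart. In ampicillin spleen 1 the T cell sum (8749) and the dendritic cell sum (1927) lay within the control range. Its erythroid sum, B cell sum (26818) and neutrophil sum (5490, against 9319 to 17815 in controls) lay below every control, and its monocyte and macrophage sum (6321) lay above. The neutrophil list was split in that spleen. S100a8, S100a9, Camp and Ltf lay below every control spleen, while Csf3r, Cxcr2 and Il1r2 lay above every control spleen. The dendritic cell list was split there too, with Itgax, Xcr1 and Batf3 below every control spleen and Ccr7 above. Of the monocyte and macrophage list, Cd163, Fcgr1 and Ccr2 lay below every control spleen and Csf1r, Msr1 and Cx3cr1 above. The sums of these lists therefore do not describe each of their genes. With ampicillin spleens 2 and 3 left out, the Casp1 change was -0.45 and did not pass (adjusted p = 0.052). The part of these markers in the Casp1 difference was not tested.

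**Figure D1:**
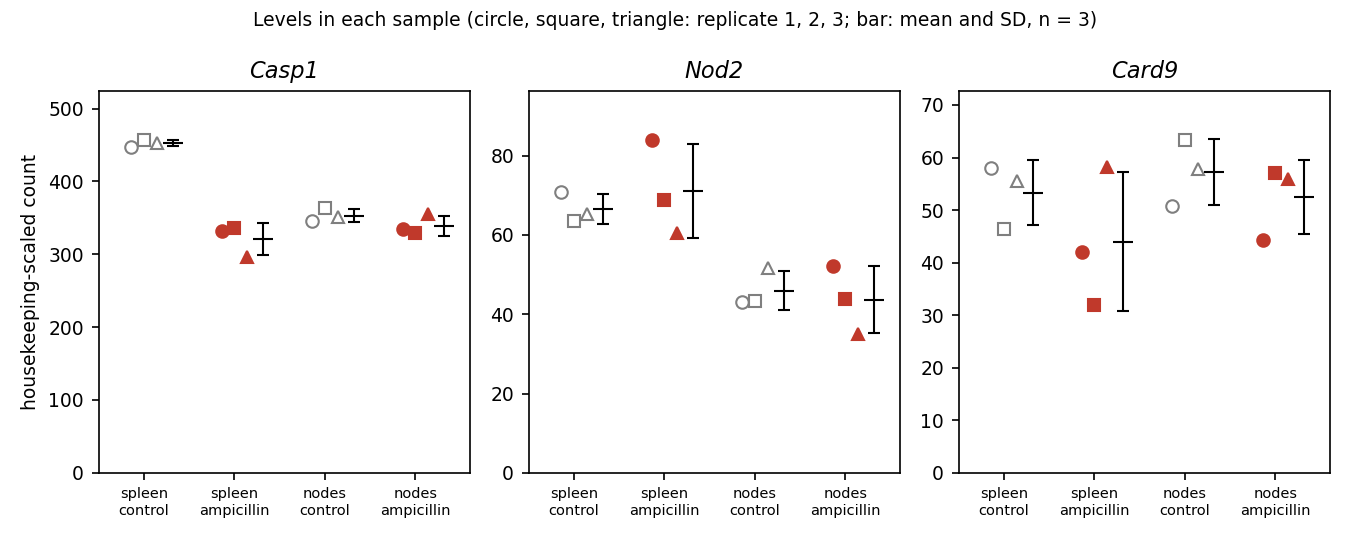
Housekeeping-scaled counts (vertical axes, linear from 0) of Casp1, Nod2 and Card9 in each of the 12 samples by group, with open symbols for control and filled for ampicillin mice, and the mean and SD of 3 samples beside them. Casp1 in ampicillin spleens lies at 296.4 to 336.2, below all control spleens at 447.7 to 456.4, and Nod2 is lower in nodes than in spleens.

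The 250 bases just before the start of each gene for which a comparison passed are shown. The sequences are from RefSeq on build GRCm38.p6 and run in the direction of the gene. They are chr9:5298267-5298516 on the plus strand for Casp1 and chr8:88647097-88647346 on the plus strand for Nod2, and capitals mark a motif match.
Casp1: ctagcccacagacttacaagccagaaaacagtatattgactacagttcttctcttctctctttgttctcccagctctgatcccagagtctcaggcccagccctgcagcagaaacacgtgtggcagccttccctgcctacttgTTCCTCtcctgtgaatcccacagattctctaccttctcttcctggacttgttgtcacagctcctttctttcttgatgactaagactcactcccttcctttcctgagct
Nod2: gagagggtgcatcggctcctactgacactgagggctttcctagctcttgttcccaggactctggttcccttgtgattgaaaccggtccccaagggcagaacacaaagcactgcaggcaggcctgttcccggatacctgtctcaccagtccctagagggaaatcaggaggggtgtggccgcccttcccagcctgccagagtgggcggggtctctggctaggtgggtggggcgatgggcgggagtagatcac
Both strands were searched for GAAANNGAA (bound by interferon regulatory factors), TTCNNNGAA (bound by STAT factors), the NF-kB consensus and GAGGAA (the core of sites of PU.1, a myeloid and B cell factor). The Casp1 window held 1 match, to GAGGAA on the opposite strand, which begins 108 bases before the gene's start. That motif is in 23.3% of 32851 mouse windows of the same length. The other 3 motifs, found in 7.13%, 7.02% and 3.90% of windows in the order given, were in neither window, and the Nod2 window held none of the 4. No motifs overlapped. A match describes letters only and says nothing of binding.

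In the mesenteric nodes Casp1 did not pass with ampicillin. Control nodes 1, 2 and 3 had 345.7, 363.2 and 350.5 scaled counts. Ampicillin nodes had 334.1, 329.1 and 355.0. Ampicillin nodes 1 and 2 lay below every control node and ampicillin node 3 lay among them, so the groups overlapped, and the log2 change was -0.06 (SE 0.08, 95% interval -0.24 to 0.12, adjusted p = 0.74, edgeR). The interval leaves room for a fall of up to 0.24 on the log2 scale, smaller than the nearest bound of the spleen interval. None of Casp1, Nod2 and Card9 was called in nodes by edgeR (0 of 3, also at an unadjusted p under 0.05) or DESeq2, where 0.449% of all tested genes were called, 19.8% had an unadjusted p under 0.05 and 31.0% did not overlap between groups.

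Whether the Casp1 change differed between tissues was tested directly as the change in nodes minus that in spleen. The difference was 0.44 (log2, SE 0.12, 95% interval 0.19 to 0.69, unadjusted p = 0.0023) and did not pass over all genes (adjusted p = 0.31, edgeR). No gene was called in this test by edgeR or DESeq2 (0% of those tested), and 11.0% had an unadjusted p under 0.05. With 1 sample left out at a time the difference ranged from 0.38 to 0.47. It passed in 1 of 12 such fits, the one without ampicillin spleen 1 (adjusted p = 0.021, with 59 genes called in place of 0). With ampicillin spleens 2 and 3 left out it was 0.39 (adjusted p = 0.46). Averaged over both tissues, Casp1 fell by 17.4% (log2 change -0.28, SE 0.06, adjusted p = 0.0083, edgeR), where 22.9% of tested genes were called. With TMM scaling this average was -0.16 and did not pass (adjusted p = 0.052), and with ampicillin spleens 2 and 3 left out it was -0.25 and passed (adjusted p = 0.033).

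In control mice Casp1 was higher in spleen than in nodes, with no overlap, where 75.3% of all tested genes did not overlap. Nodes against spleen gave a log2 difference of -0.36 (SE 0.08, adjusted p = 0.0017, edgeR). After ampicillin the 2 tissues overlapped in Casp1 and the difference was 0.08 (SE 0.08, 95% interval -0.10 to 0.26, adjusted p = 0.43), or 0.03 with ampicillin spleens 2 and 3 left out (adjusted p = 0.83). These comparisons share samples with those of ampicillin against control, so they restate the same 12 values. In descending order the group means were 452.4 in control spleen, 353.1 in control nodes, 339.4 in ampicillin nodes and 321.3 in ampicillin spleen. The neighbouring groups of control and ampicillin nodes overlapped, as did those of ampicillin nodes and ampicillin spleen. Control nodes lay above ampicillin spleens in every sample. Those groups differ in both tissue and treatment, and the share of all genes without overlap between them was not counted.

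Nod2 differed by tissue and not detectably by treatment. Control spleens 1, 2 and 3 had 70.8, 63.6 and 65.3 scaled counts, and ampicillin spleens had 83.9, 68.8 and 60.6. Control nodes had 43.0, 43.4 and 51.5 scaled counts, and ampicillin nodes had 52.2, 43.8 and 35.1. Every spleen lay above every node, while treated and control samples overlapped within each tissue.

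In control mice Nod2 averaged 66.6 ± 3.74 scaled counts in spleen and 46.0 ± 4.85 in nodes (SD, n = 3 each). The log2 difference, nodes against spleen, was -0.53 (edgeR, SE 0.18, 95% interval -0.92 to -0.14, adjusted p = 0.020). After ampicillin the means were 71.1 ± 11.8 and 43.7 ± 8.54 (SD, n = 3 each), and the difference was -0.70 (SE 0.19, 95% interval -1.11 to -0.30, adjusted p = 0.0048, edgeR). With ampicillin spleens 2 and 3 left out it was -0.94 (adjusted p = 0.0051). Of Casp1, Nod2 and Card9, 2 of 3 were called in control mice, where 64.0% of all tested genes were called and 34.4% called lower in nodes. After ampicillin 1 of 3 was called, where 63.1% were called. Spleens and nodes did not overlap in 75.3% of all tested genes in control mice and in 63.1% after ampicillin, so a tissue difference of this kind was common in the table. The Nod2 difference in control mice did not pass without control spleen 1 (-0.48, adjusted p = 0.065), control node 1 (-0.48, adjusted p = 0.070) or control node 2 (-0.49, adjusted p = 0.060). It did not pass with DESeq2 and housekeeping size factors (-0.53, adjusted p = 0.058).

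Myeloid markers differed between the tissues beside Nod2. Summed over 7 neutrophil genes, including S100a8 and S100a9, control spleens ran from 9319 to 17815 scaled counts and control nodes from 171.3 to 237.3. Of 6 tested neutrophil genes 5 were lower in control nodes. The monocyte and macrophage list, with 9 tested, had 6 lower there and 2 higher. The summed monocyte and macrophage level was 5744 to 6251 in control spleens and 5422 to 6705 in control nodes. Much of the node sum was Marco, at 3182 to 4039 scaled counts in control nodes and 1188 to 1787 in control spleens. The median log2 difference of the list, nodes against spleen, was -0.96, so the similar sums do not describe most of its genes. The part of these cells in the Nod2 difference was not tested.

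The ampicillin effect on Nod2 was 0.09 in spleen (log2, SE 0.17, 95% interval -0.28 to 0.47, adjusted p = 0.73, edgeR). In nodes it was -0.08 (SE 0.19, 95% interval -0.50 to 0.34, adjusted p = 0.84). The difference of these effects was -0.17 (SE 0.26, adjusted p = 0.79), and their mean was 0.0078 (SE 0.13, adjusted p = 0.97). The spleen value turned to -0.05 without ampicillin spleen 1, the sample with the highest Nod2 level, and was 0.33 (adjusted p = 0.50) with that spleen as the lone treated one. A change as large as that of Casp1 in spleen lies outside the Nod2 interval there and just inside it in nodes.

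Card9 was the least precisely measured of the 3 genes and no comparison passed. Control spleens 1, 2 and 3 had 58.1, 46.4 and 55.5 scaled counts, and ampicillin spleens had 41.9, 31.8 and 58.1. Control nodes had 50.8, 63.3 and 57.9, and ampicillin nodes 44.4, 57.1 and 55.9. All 4 groups overlapped. The lowest value, in ampicillin spleen 2, rested on 25 counts, whose exact 95% Poisson interval spans 20.6 to 47.0 scaled counts and covers counting error only.

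The ampicillin effect on Card9 was -0.26 in spleen (log2, SE 0.21, 95% interval -0.71 to 0.20, adjusted p = 0.41, edgeR) and -0.12 in nodes (SE 0.21, 95% interval -0.58 to 0.34, adjusted p = 0.78). Omitting ampicillin spleen 3 gave -0.51 in spleen, omitting ampicillin spleen 2 gave -0.09 and omitting both gave -0.35, and none of these passed. Nodes against spleen gave 0.10 in control mice (SE 0.21, adjusted p = 0.70) and 0.23 after ampicillin (SE 0.22, adjusted p = 0.38). Both ampicillin intervals include a fall of the size seen for Casp1 in spleen.

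**Figure D2:**
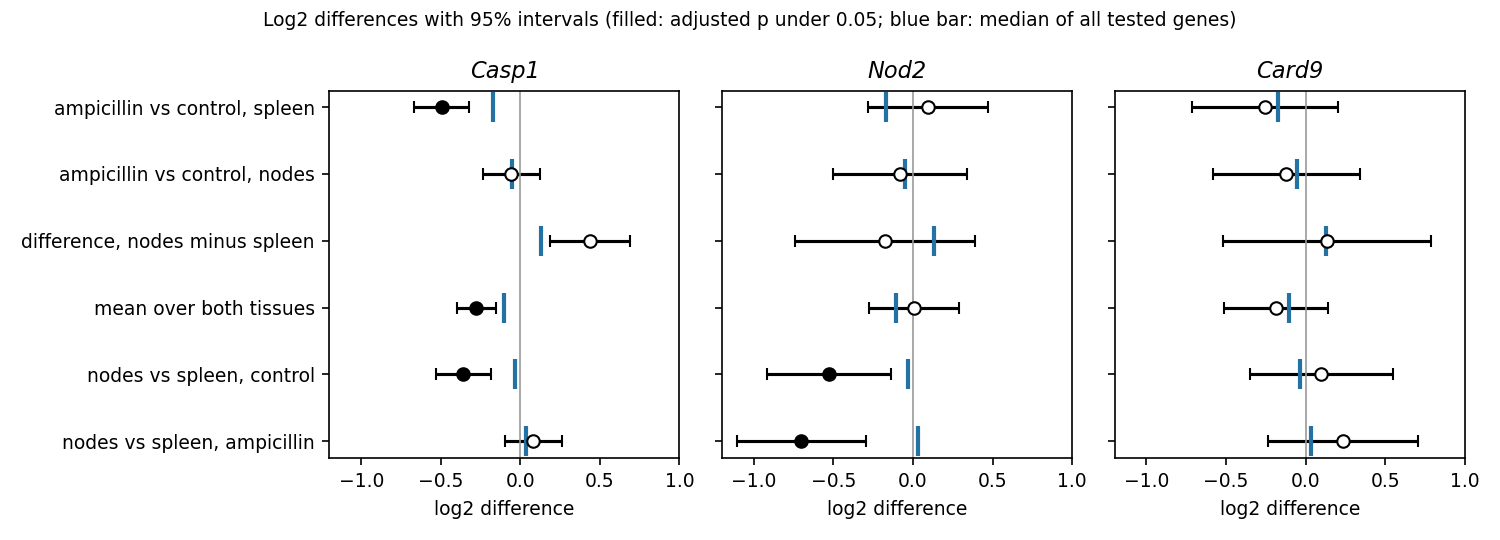
Log2 differences (horizontal axis) of Casp1, Nod2 and Card9 in 6 comparisons, with 95% intervals, filled where the adjusted p was under 0.05, and the median of all 445 tested genes as a blue bar. Casp1 at -0.50 in the spleen comparison has the narrowest interval of the 3 genes and lies below the median of -0.17, while the Card9 intervals all span 0.

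Likeness of pattern was measured as the root mean square difference of log2 levels over the 12 samples, each gene centred on its own mean. Nearest to Casp1 were H2-DMa, which helps load peptides on MHC class II (0.11), Mapkapk2, a kinase downstream of p38 (0.12), and Irf8, a transcription factor of myeloid and B cells (0.12), against a median of 0.35 over all others. Their log2 changes in ampicillin spleens were -0.35 for H2-DMa, -0.28 for Irf8 and -0.21 for Mapkapk2, which are descriptions only, since these genes were picked for a pattern that holds the Casp1 change. Nearest to Nod2 were Smad3 (0.18), Tnfsf12 (0.19) and Tgfb1 (0.19). Nearest to Card9 were Pdcd1lg2 (0.17), Crlf2 (0.19) and Bax (0.20). Casp1, Nod2 and Card9 were not near each other. In the order of nearness to Nod2, Casp1 stood at position 140 and Card9 at position 260 of 444, and Casp1 stood at position 128 for Card9.

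The other genes of the pathway were taken from 5 lists. Of 15 tested genes listed for NOD and Ripk2 signalling to NF-kB, 0 were called by edgeR in ampicillin spleens and 0 in ampicillin nodes. Of all tested genes 16.9% were called in spleen and 0.449% in nodes. The list's median log2 changes were -0.13 and -0.07, against -0.17 and -0.05 for all tested genes. Without ampicillin spleen 1 the list's counts became 4 lower in spleen and 1 lower in nodes, and TMM scaling gave 1 lower in nodes. Averaged over tissues, 2 of the 15 fell, beside the 22.9% of all tested genes called in either direction. They were the IkB kinases Chuk (-0.27, adjusted p = 0.014) and Ikbkb (-0.31, adjusted p = 0.019), and neither passed with TMM scaling (-0.15 and -0.20, adjusted p = 0.12 and 0.051) or with ampicillin spleens 2 and 3 left out (-0.28 and -0.24, adjusted p = 0.051 and 0.096). At an unadjusted p under 0.05, Ikbkb and Rela of this list were lower in spleen and Chuk and Ikbkb in nodes. In nodes 19.8% of all tested genes had such a p, and in spleen 16.9% passed even after adjustment.

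Of the partners of Card9, 3 were tested, the kinases Syk and Prkcd and the receptor chain Fcer1g. None was called with ampicillin in either tissue, nor had an unadjusted p under 0.05. Of all tested genes 16.9% were called in spleen and 0.449% in nodes, and 19.8% had such a p in nodes. Clec4e, a C-type lectin receptor, had a mean of 15.1 scaled counts and was not tested.

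Neither cytokine that caspase-1 matures passed with ampicillin over all samples, but Il1b depended on which spleens were kept. Il18 stood at 295.8, 249.1 and 245.5 scaled counts in control spleens and at 290.2, 231.8 and 227.5 in ampicillin spleens. The groups overlapped (log2 change -0.08, SE 0.15, adjusted p = 0.74, edgeR), and with ampicillin spleens 2 and 3 left out the change was 0.14 (adjusted p = 0.77). Il1b stood at 213.9, 212.7 and 268.9 in control spleens and at 700.2, 306.9 and 130.4 in ampicillin spleens 1, 2 and 3. Ampicillin spleens lay on both sides of the controls (log2 change 0.71, SE 0.40, adjusted p = 0.23). With ampicillin spleen 1 as the lone treated spleen the Il1b change was 1.60, and its difference of effects, nodes minus spleen, was -1.63. Those values describe 1 mouse, since that fit leaves out the treated spleens at 306.9 and 130.4 and cannot measure the spread of treated spleens. In nodes Il18 was at 0.08 and Il1b at -0.03 (adjusted p = 0.80 and 0.98).

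With ampicillin, edgeR called 16.9% of all tested genes in spleen and 0.449% in nodes. Of the 12 tested inflammasome, interleukin 1 and interleukin 18 genes, 0 were called by edgeR in either tissue. Their medians were 0.05 in spleen and 0.10 in nodes. The spleen count became 3 without ampicillin spleen 1 (1 higher, 2 lower) and 1 with DESeq2, and the node count became 2 with TMM scaling (1 higher, 1 lower) and 1 without ampicillin spleen 1. Casp8, the caspase of death receptors, was at -0.25 in spleen (adjusted p = 0.057; -0.18 with ampicillin spleens 2 and 3 left out, adjusted p = 0.47) and -0.30 in nodes (adjusted p = 0.094). Averaged over tissues Casp8 fell by 0.27 (adjusted p = 0.0086), as did Il18r1, a chain of the interleukin 18 receptor, by 0.33 (adjusted p = 0.037). Il18r1 did not pass with TMM scaling (adjusted p = 0.096) or with ampicillin spleens 2 and 3 left out (-0.21, adjusted p = 0.22), while Casp8 passed in both (adjusted p = 0.034 and 0.040). With TMM scaling 3 genes of this list were called higher and 1 lower in that average, against 0 higher and 2 lower with housekeeping scaling. Il1rl1, the receptor of interleukin 33, stood at 1.20 in spleen (SE 0.40, adjusted p = 0.057). Ampicillin spleens 1, 2 and 3 had 34.2, 94.2 and 125.4 scaled counts of it, and controls 26.2 to 54.5. Its high values were in both spleens with high erythroid sums, and without them the change was -0.09 (adjusted p = 0.92). Casp8 and Il1rl1 in single tissues, Rela and the single-tissue values of Ikbkb and Chuk are outside the naming rule and were chosen after their values were seen.

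Of 15 Toll-like receptors and their adaptors, which prime inflammasome genes, 1 was called in ampicillin spleens, against 16.9% of all tested genes. It was Tlr1, a partner of Tlr2 for bacterial lipopeptides. Tlr1 stood at 994.8, 1045 and 862.2 scaled counts in control spleens and at 740.4, 687.7 and 818.7 in ampicillin spleens, with no overlap. Its log2 change was -0.37 (SE 0.10, adjusted p = 0.037, edgeR). It was -0.19 with TMM scaling and did not pass (adjusted p = 0.23), nor did it with ampicillin spleens 2 and 3 left out (-0.39, adjusted p = 0.21). It passed in 7 of 12 fits with 1 sample left out, a number that counts fits without a node sample, which keep every spleen value. Averaged over tissues it fell by 0.37 (adjusted p = 0.0083) and was the 1 gene of the list called. With TMM scaling the 1 gene of the list called in spleen was higher, not lower.

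Of 14 inducible targets of NOD signalling in the table, 7 had a mean under 20 scaled counts and were not tested, among them Il6, Nos2 and Cxcl1. Of the 7 tested, 2 fell in ampicillin spleens, where 14.6% of all tested genes were lower. Tnf stood at 134.4, 101.8 and 100.3 scaled counts in control spleens and at 59.1, 62.4 and 88.8 in ampicillin spleens, with no overlap (log2 change -0.67, SE 0.21, adjusted p = 0.046, edgeR). Ccl5, a chemokine of T and natural killer cells, changed by -0.36 (SE 0.11, adjusted p = 0.044). Neither passed with TMM scaling (adjusted p = 0.17 and 0.28) or with ampicillin spleens 2 and 3 left out. Each passed in 3 of 12 fits with 1 sample left out, among them fits without a node sample, which keep every spleen value. None of the 7 was called in nodes, nor had an unadjusted p under 0.05. Of all tested genes 0.449% were called in nodes and 19.8% had such a p.

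**Figure D3:**
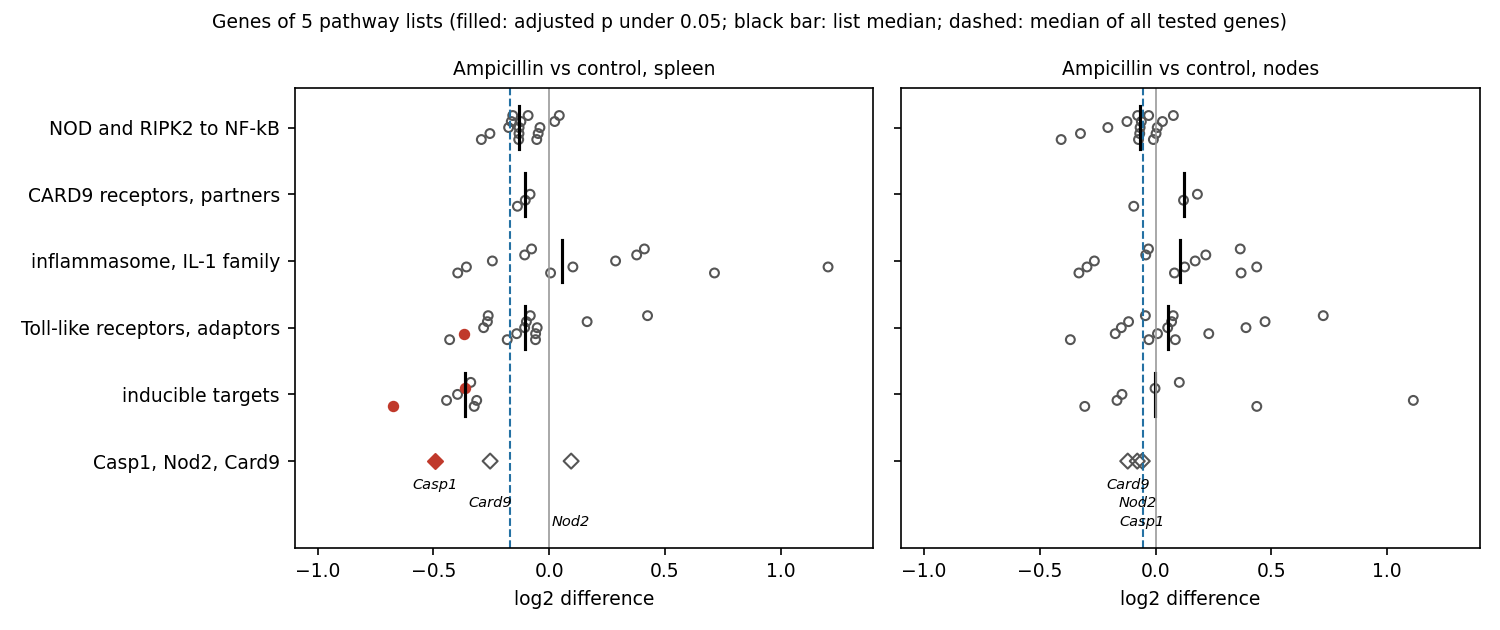
Log2 differences (horizontal axes) between ampicillin and control mice for each tested gene of 5 pathway lists (circles) and for Casp1, Nod2 and Card9 (diamonds), in spleen at left and nodes at right. Filled symbols passed at an adjusted p under 0.05, black bars are list medians and the dashed line is the median of all tested genes, at -0.17 in spleen and -0.05 in nodes.

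Between tissues 64.0% of all tested genes were called in control mice, with 34.4% lower in nodes, and the list counts are to be read against those shares. In control mice all 3 tested Card9 partners were lower in nodes, Fcer1g by 1.34, Syk by 1.06 and Prkcd by 0.33 on the log2 scale (adjusted p = 1.0e-06, 1.8e-06 and 0.0051, edgeR). Card9 itself stood at 0.10. Of 15 Toll-like receptors and adaptors 10 were lower and 0 higher in nodes, at a median of -0.45 against -0.03 for all tested genes. They included Tlr8, a receptor in endosomes (-1.43), Tlr4, the receptor for lipopolysaccharide (-0.86), Tlr9, a receptor for bacterial DNA (-0.80), and Cd14, a coreceptor of Tlr4 (-1.03).

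Of the 12 inflammasome, interleukin 1 and interleukin 18 genes, 5 were lower and 4 higher in control nodes, a share near that of all tested genes. Il1b stood at 39.1, 34.0 and 27.8 scaled counts in control nodes, below every control spleen, with a log2 difference of -2.79 (SE 0.48, adjusted p = 0.00021, edgeR). Il18 was lower by 1.51 (adjusted p = 2.6e-06) and Il1a by 1.25 (adjusted p = 0.00011). Il33, an alarm cytokine of stromal cells, was higher by 2.63 (adjusted p = 8.7e-09). Casp1 and both of these substrates were thus lower in control nodes, with Casp1 at -0.36. After ampicillin Il1b and Il18 were still lower in nodes, at -3.54 and -1.35 (adjusted p = 4.4e-05 and 9.7e-06; -4.42 and -1.57 with ampicillin spleens 2 and 3 left out), whereas Casp1 at 0.08 did not pass.

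Of the 15 genes listed for NOD and Ripk2 signalling to NF-kB, 3 were higher in control nodes, Relb (0.59), Tnfaip3 (0.44) and Traf6 (0.26). The kinase Mapk14 was the 1 gene lower there (-0.50). After ampicillin 4 were higher and 2 lower, but with TMM scaling 3 were higher and 3 lower, and with ampicillin spleens 2 and 3 left out 1 was higher and 1 lower. Of the 7 tested inducible targets, the chemokines Ccl5 and Ccl2 were higher in control nodes by 1.57 and 2.90 on the log2 scale, and Il12a was lower (-0.77). Camp, a neutrophil granule peptide, was also called lower, with control nodes below 20 scaled counts in every sample. The neutrophil sums given above differed between the tissues in the same direction as Il1b and Camp, but Camp is itself 1 of the 7 genes summed. The part of neutrophils in those differences was not tested.

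**Figure D4:**
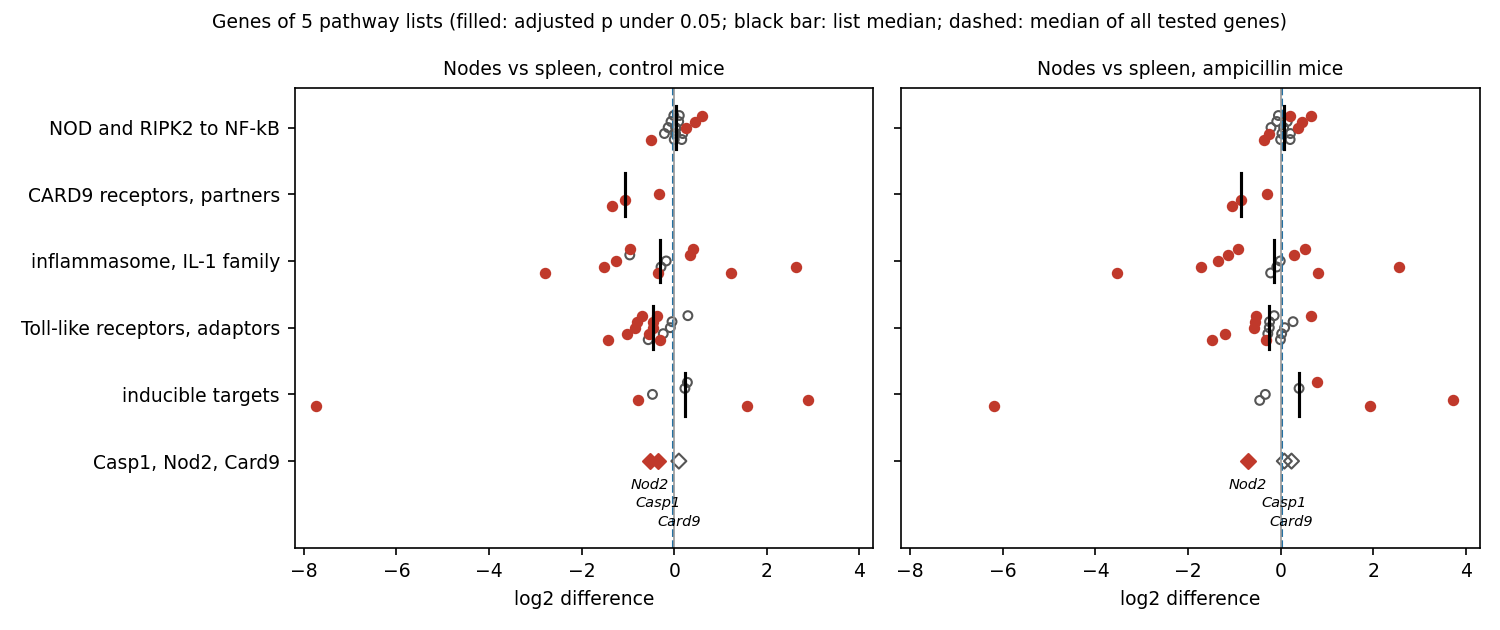
Log2 differences (horizontal axes) between nodes and spleen for each tested gene of the same 5 lists (circles) and for Casp1, Nod2 and Card9 (diamonds), in control mice at left and ampicillin mice at right. Filled symbols passed at an adjusted p under 0.05; Il1b lies at -2.79 and -3.54, while Nod2 lies at -0.53 and -0.70.

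**Figure D5:**
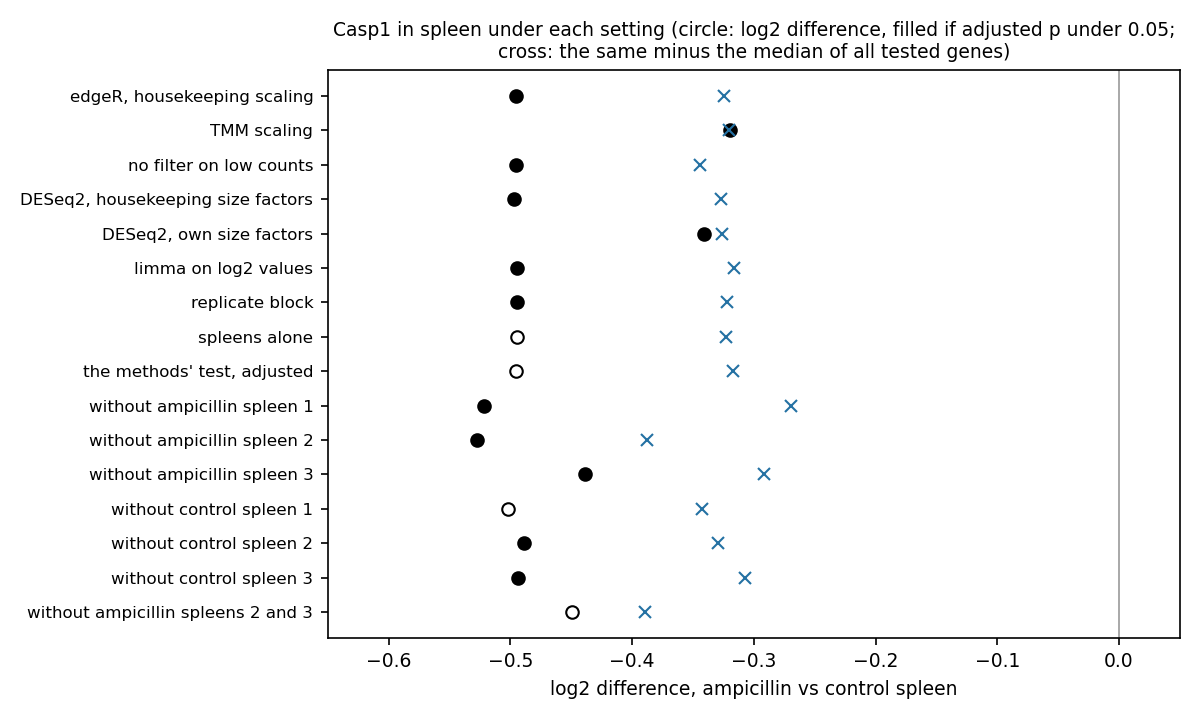
Log2 difference of Casp1 between ampicillin and control spleens (circles, filled where the adjusted p was under 0.05) under each analysis setting, and the same value minus the median of all tested genes (crosses). Every setting shown lies below 0, from -0.53 without ampicillin spleen 2 to -0.32 with TMM scaling.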

How the data were processed

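The deposited table held whole-number counts per gene for 12 samples. The submitters' design text, per the labels, states that the authors normalized to 14 housekeeping genes in nSolver, but totals and housekeeping means differed between samples (the means by 1.65-fold), so values were treated as unnormalized counts. The 14 genes were named from knowledge of this panel. A further deposited table has 12 columns whose names match no sample label and was not used, so no background from control probes was taken.

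Counts were scaled by the housekeeping geometric mean, and 445 of the 547 remaining genes, those averaging 20 scaled counts or more, were tested with the quasi-likelihood test of edgeR 4.0.16 (R 4.3.3) over 4 group means (8 residual degrees of freedom), with Benjamini-Hochberg adjustment over 445 genes and a threshold of 0.05. Intervals use the fit's moderated degrees of freedom. limma 3.58.1, DESeq2 1.42.0, TMM scaling, no filter, spleens or nodes alone, a replicate block, the methods' test and omission of each sample were alternatives. The fit was tested on simulated data. Genes named are the 3 members, up to 4 called genes per list and comparison, and the 3 nearest in pattern to each member. The members and lists were chosen with earlier results of these data known. Gene names are those of the table.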

Additional observations from a re-analysis of the deposited data

How the results depend on the processing

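Counts of Casp1, Nod2 and Card9 called (of 3) moved as follows. In spleen the count of 1 became 0 in a fit of that tissue alone, with the methods' test after adjustment and without ampicillin spleens 2 and 3 (the last chosen after seeing the data), and ran from 0 to 1 with 1 sample left out. For the difference of effects the count of 0 ran from 0 to 1 with 1 sample left out, and for the mean effect the count of 1 became 0 with TMM scaling and 0 with DESeq2 and its own size factors. For nodes against spleen in control mice the count of 2 became 1 with DESeq2 and either size factors and ran from 1 to 2 with 1 sample left out. After ampicillin the count of 1 became 0 with the methods' test after adjustment. At the methods' own threshold, unadjusted, that test called 1 in spleen, 0 in nodes, 2 in control mice and 1 after ampicillin.

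Among Casp1, Nod2 and Card9, signs turned only for changes within 1 SE of 0. Casp1 in nodes was 0.0093 with DESeq2 and its own size factors, and the mean effect on Nod2 was -0.00073 with limma. With 1 sample left out, Nod2 ran from -0.051 to 0.20 in spleen, from -0.22 to 0.049 in nodes and from -0.066 to 0.072 for the mean, and the Card9 difference of effects from -0.029 to 0.39. Casp1 in spleen ran from -0.53 to -0.44 and passed in 11 of 12 such fits. That number counts fits without a node sample, which keep every spleen value and act only through the shared estimate of spread.

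Over all tested genes, the 75 called in spleen were 22 with TMM scaling (11 higher, 11 lower, against 10 and 65), 47 with DESeq2 and its own size factors (24 higher, 23 lower), 44 with limma, 41 with the replicate block, 0 with spleens alone, 0 with the adjusted methods' test, 6 without ampicillin spleens 2 and 3, and 0 to 159 with 1 sample left out. The 2 called in nodes were 32 with TMM scaling, 38 with DESeq2 and its own size factors, 6 with DESeq2 and housekeeping factors, 15 with nodes alone, 0 with the replicate block, 35 at the methods' unadjusted threshold, and 0 to 32 with 1 sample left out. The mean effect's 102 (13 higher, 89 lower) were 97 with TMM scaling (53 higher, 44 lower), 37 without ampicillin spleens 2 and 3, and 67 to 157 with 1 sample left out. The difference's 0 was 1 without both spleens and 0 to 59 with 1 sample left out, and the 281 after ampicillin were 126 with the adjusted methods' test.

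Sample titles share replicate numbers, but the labels name different mice. Deviations of same-numbered samples correlated from -0.35 to 0.24 and exceeded 0.1 in 3 of 18 pairs, so the numbers were not taken as pairs. With the replicate block Casp1 in spleen was -0.49 (adjusted p = 0.034), and no call of Casp1, Nod2 or Card9 changed. The causes of these shifts were not tested. Counts of 25 to 98 per sample limit Nod2 and Card9.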
